A study of Mus musculus with 5 samples.

Results

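The 9 genes described here encode BCL2 family proteins, which set whether a cell survives or undergoes apoptosis at its mitochondria. They are Bcl2, Bcl2l1, Mcl1, Bax, Bak1, Bid, Bcl2l11, Bbc3 and Pmaip1. They were chosen by symbol as known members of the family, and all 9 were found among the 21878 gene symbols of the table. Their mRNA was measured by RNA sequencing in RAW264.7, an established mouse line with macrophage traits. The first group held 2 libraries of cells given LPS together with arctigenin, a plant lignan, at 1 μM. The second held 2 libraries of cells given LPS alone, a lipid of bacterial outer membranes to which macrophages respond, and the last held 1 library of cells with vector. LPS is labelled at 0.5 mg/mL in both LPS groups, and neither the time of treatment nor the content of the vector is given in the sources used here. No library is labelled as a solvent control, so arctigenin and its solvent cannot be told apart.

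In this family, survival proteins such as BCL2, BCL-XL (Bcl2l1) and MCL1 hold the effectors BAX and BAK (Bak1) in check. When released, the effectors form pores in the outer mitochondrial membrane, cytochrome c escapes, and caspases are activated. BH3-only proteins, here BID, BIM (Bcl2l11), PUMA (Bbc3) and NOXA (Pmaip1), report stress by binding survival proteins or effectors. Much of their control is on the protein, by cleavage, phosphorylation or rapid degradation, which mRNA counts do not show. In macrophages, MCL1 and the A1 proteins are known for supporting survival during inflammation.

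Each library held 19836148 to 21578285 estimated counts in all. Levels are given as CPM, the usual depth-scaled count, here with edgeR's TMM factors, and differences as log2 fold changes with the standard error (SE) of edgeR's quasi-likelihood fit. A gene was called at a Benjamini-Hochberg adjusted p under 0.05 over all 11575 genes tested. All 5 libraries entered that fit, and the spread of the single vector library was taken to equal that of the other groups. Separate cultures are not stated for the replicates, so p-values reflect the spread of these libraries alone, which may be technical. Of 10 macrophage marker symbols, 9 were in the table, and the other, Emr1, is an older symbol of Adgre1, one of the 9. Mertk was low, at 1.97 and 1.32 CPM with LPS and arctigenin, 0.245 and 0.552 CPM with LPS, and 0.119 CPM with vector. The 9 markers summed to 4282 and 4350 CPM with LPS and arctigenin, 4694 and 4846 CPM with LPS, and 6864 CPM with vector. Most of that sum with vector was Lyz2, which fell 2.57-fold with LPS relative to vector (edgeR adjusted p = 2.38e-07), whereas 5 of the 9 markers rose, 2 fell and the median log2 fold change was 0.30. For LPS with arctigenin against LPS 2 of the 9 rose and 3 fell. The part of these differences in the results below was not tested. Of 20 markers of other cell types, 19 were in the table and summed to at most 7.75 CPM in any library, and Cd3e, Cd3g and Epcam were at 0 in every library. Among them the 5 fibroblast markers summed to 1.12 and 1.16 CPM with LPS and arctigenin, 5.34 and 4.57 CPM with LPS, and 0.677 CPM with vector. Dcn, at 3.87 and 3.36 CPM with LPS and 0.426 and 0.475 CPM with LPS and arctigenin, was most of the sum with LPS. Lum was also called lower with arctigenin relative to LPS, while Col1a1, Col1a2 and Pdgfra were below the count filter. The 3 endothelial markers summed to 3.30 and 3.27 CPM with LPS and arctigenin, 1.62 and 1.56 CPM with LPS, and 1.04 CPM with vector. Only Pecam1 of these was called for LPS with arctigenin against LPS, at 2.55 and 2.48 CPM against 0.981 and 0.803 CPM with LPS. Cdh5 and Kdr were not called. The part of these low levels in the results was not tested. As these are bulk samples, fewer cells of a kind and less RNA per cell cannot be told apart.

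On mouse build NCBIM37 (mm9), all 9 are annotated as protein-coding genes, and Pmaip1 is placed with its values below. Among the survival genes, Bcl2 lies on the minus strand of chromosome 1 from 108434755 to 108610851. Bcl2l1 lies on the minus strand of chromosome 2 from 152593052 to 152657464, and Mcl1 on the plus strand of chromosome 3 from 95462643 to 95467099. The effectors lie on minus strands, Bax on chromosome 7 from 52717065 to 52722268 and Bak1 on chromosome 17 from 27156755 to 27165954. Bid lies on the minus strand of chromosome 6 from 120841948 to 120866871, and Bcl2l11 on the plus strand of chromosome 2 from 127951774 to 127988283. Bbc3 lies on the plus strand of chromosome 7 from 16894965 to 16903554.

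The sequence before a start site is shown for Bid, Bcl2l11 and Bak1, whose calls between the LPS groups held in every alternative run, and for Bax, the effector that was not called beside Bak1. Each run covers 250 bases before and 50 bases after a start site annotated by RefSeq on GRCm38.p6, which is another build than the gene positions above. They are Bid at chr6:120916775-120917074 on the minus strand, Bcl2l11 at chr2:128125788-128126087 on the plus strand, Bak1 at chr17:27028578-27028877 and Bax at chr7:45466849-45467148, both on the minus strand. Capitals mark matches on either strand to the searched motifs: the GC box GGGCGG, the E box CACGTG bound by MYC, the cAMP response element TGACGTCA and its part TGACG, an E2F motif TTTGGCGC, the EGR1 motif GCGTGGGCG and the TATA motif TATAAA.
Bid: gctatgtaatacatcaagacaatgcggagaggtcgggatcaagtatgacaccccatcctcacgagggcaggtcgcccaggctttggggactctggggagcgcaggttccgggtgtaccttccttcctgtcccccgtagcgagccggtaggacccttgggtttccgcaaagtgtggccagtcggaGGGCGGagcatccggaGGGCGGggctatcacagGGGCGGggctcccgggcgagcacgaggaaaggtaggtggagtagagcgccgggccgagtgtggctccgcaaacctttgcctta
Bcl2l11: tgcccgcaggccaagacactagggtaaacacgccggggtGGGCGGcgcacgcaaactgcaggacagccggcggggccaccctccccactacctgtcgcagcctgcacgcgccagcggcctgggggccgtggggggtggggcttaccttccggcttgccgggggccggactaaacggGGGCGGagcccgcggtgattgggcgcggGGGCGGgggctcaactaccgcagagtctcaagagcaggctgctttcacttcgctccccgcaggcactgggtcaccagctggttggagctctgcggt
Bak1: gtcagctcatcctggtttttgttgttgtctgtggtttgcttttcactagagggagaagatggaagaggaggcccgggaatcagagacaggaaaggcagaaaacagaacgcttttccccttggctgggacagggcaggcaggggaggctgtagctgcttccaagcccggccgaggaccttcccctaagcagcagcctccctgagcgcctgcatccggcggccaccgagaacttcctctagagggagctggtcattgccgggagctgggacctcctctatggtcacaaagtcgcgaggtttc
Bax: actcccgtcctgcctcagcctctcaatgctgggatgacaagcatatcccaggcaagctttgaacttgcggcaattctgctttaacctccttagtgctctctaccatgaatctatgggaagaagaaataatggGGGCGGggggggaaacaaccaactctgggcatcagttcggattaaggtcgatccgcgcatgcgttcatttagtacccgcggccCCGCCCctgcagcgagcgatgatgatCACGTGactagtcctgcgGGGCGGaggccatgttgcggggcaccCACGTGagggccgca
Bcl2l11 has another annotated start, with a window at chr2:128127325-128127624 that also held 3 GC boxes and is not shown. The Bid, Bcl2l11 and Bax windows shown each held 3 GC boxes, a motif with any match in 35.7% of all 32851 promoter windows of this length. Their GC content was 63.3%, 71% and 57.3%, and that of the Bak1 window was 58.3%, against a median of 52.7% over all windows. The Bax window also held 2 E boxes, a motif with any match in 7.15% of all windows. The motifs without a match in these 4 windows were present in 0.612% (EGR1), 1.79% (TGACGTCA), 20.8% (TGACG), 0.514% (E2F) and 13.6% (TATA) of all windows. The Bak1 window held no match, which says only that these letters are not in it. RefSeq windows were searched for 8 of the 9 genes, as Pmaip1 was left out beforehand. A match is a description of the sequence, not of binding.

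Per kilobase of exonic sequence, the order of the 9 mRNAs placed Mcl1 highest and Bcl2 lowest in every library. Mcl1 stood at 154 and 177 CPM per kb with LPS and arctigenin, 195 and 203 with LPS, and 271 with vector. Bcl2 stood at 1.58 and 1.66 CPM per kb with LPS and arctigenin, 2.45 and 2.32 with LPS, and 1.96 with vector. Bax came next to Mcl1 in every library. Below Bax the order changed with treatment. The gene next after Bax was Bak1 with LPS and arctigenin, Bcl2l1 with LPS and Pmaip1 with vector. With LPS and arctigenin the neighbours Bcl2l1 and Pmaip1 overlapped, at 51.8 and 53.6 CPM per kb against 51.8 and 53.4 CPM per kb. The other neighbours did not overlap within a group of replicates. The length used merges all exons of a gene, which can exceed that of a single mRNA. For Bcl2l1 it is 4734 bases, where the longest annotated coding transcript has 2417, and for Bax 1339 bases, where the longest has 1049. The order may depend on this length, and other lengths were not tried.

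As a share of the summed CPM per kb of the 9 genes, the survival genes made up 46.0% and 48.3% with LPS and arctigenin, 52.8% and 55.0% with LPS, and 55.4% with vector. The effectors Bax and Bak1 made up 37.7% and 35.9% with LPS and arctigenin, 30.0% and 28.7% with LPS, and 27.3% with vector. The effector sum was 169.8 and 172 CPM per kb with LPS and arctigenin, 147 and 141 with LPS, and 148 with vector. With LPS alone the effector share was thus above vector, while the effector sum was not. Shares also move with the total of the 9 genes, of which Mcl1 was the largest part in every library. That total was 451 and 480.5 CPM per kb with LPS and arctigenin, 491 and 490.5 with LPS, and 541 with vector. The BH3-only genes stayed between 15.8% and 17.4% in every library. Their own sum was 73.5 and 76.1 CPM per kb with LPS and arctigenin, 84.7 and 80.3 with LPS, and 94.0 with vector. Pmaip1 was most of that sum in every library, so changes of Bid and Bcl2l11 show little in the share. Bid stood at 8.58 and 8.66 CPM per kb with LPS and arctigenin and at 17.5 and 17.3 with LPS. These shares and sums are descriptions of mRNA per length and carry no test. The survival share leaves out the A1 genes given further below, and all shares and sums rest on the merged exon length.

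**Figure D1:**
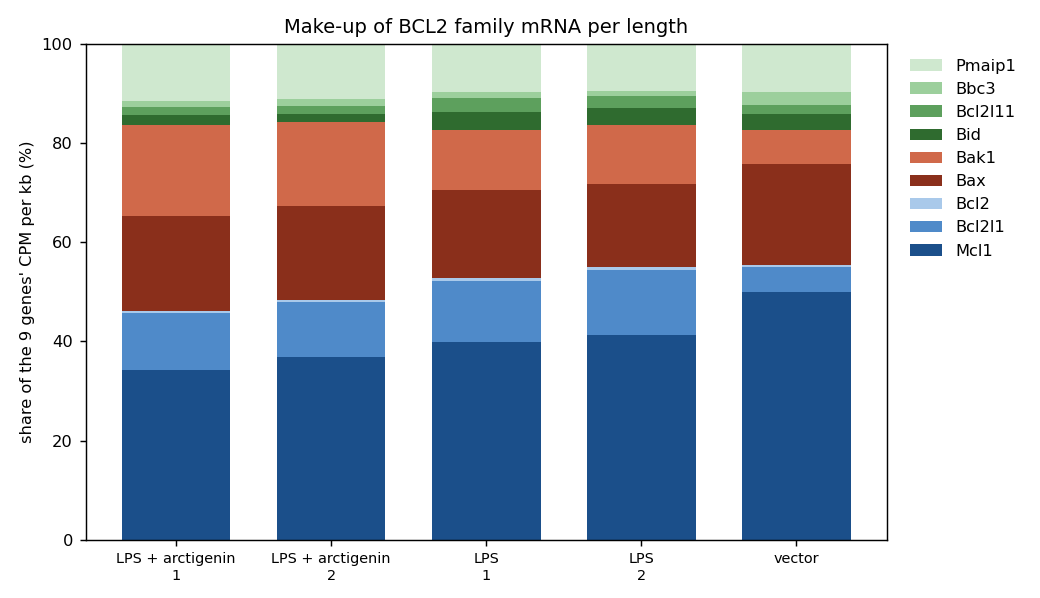
Share in percent of the summed CPM per kilobase of exonic sequence of the 9 genes, one bar per library, with survival genes in blue, effectors in red and BH3-only genes in green. The Bak1 band is 18.4% and 16.9% with LPS and arctigenin, 12.1% and 12.0% with LPS, and 6.81% with vector.

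The LPS groups differ in arctigenin with whatever solvent carried it. Of the 9 genes, 5 fell, 1 rose and 3 were not called. The background in this comparison was high, with 44.8% of all genes called, 22.0% as lower and 22.8% as higher. The median log2 fold change of the 9 was −0.25, against −0.0028 over all genes tested. The BH3-only gene Bid fell most, about 2-fold, followed by Bcl2l11 and Bcl2. Bak1 was the member that rose. Without LPS replicate 1, or without LPS replicate 2, 3 of the 9 were called lower, and from curated transcripts only 2 were.

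Bid, which caspase-8 cleaves to carry a death receptor signal to the mitochondria, had 30.4 and 30.7 CPM with LPS and arctigenin, 62.0 and 61.5 CPM with LPS, and 62.9 CPM with vector. The libraries with arctigenin lay well below the other 3, which were close together. Bid fell 2.02-fold relative to LPS (log2 −1.01 ± 0.08, SE, edgeR adjusted p = 1.14e-05). The call held in all 12 alternatives run, with log2 values between −1.33 and −0.97.

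Bcl2l11, which encodes the strong BH3-only protein BIM, had 59.0 and 60.3 CPM with LPS and arctigenin, 106 and 94.5 CPM with LPS, and 77.6 CPM with vector. Its levels with arctigenin were below vector, and those with LPS alone were above it. It fell 1.68-fold relative to LPS (log2 −0.75 ± 0.08, edgeR adjusted p = 5.71e-05), and the call held in all 12 alternatives. The other BH3-only genes were not called. Pmaip1, whose product NOXA mainly binds MCL1, lies on the plus strand of chromosome 18 from 66618258 to 66625204 (mm9). It had 137 and 141 CPM with LPS and arctigenin, 127 and 123 CPM with LPS, and 139 CPM with vector. Its groups did not overlap, yet the difference was small (log2 0.15, 95% interval 0.02 to 0.29 before adjustment, edgeR adjusted p = 0.0642). Bbc3, which encodes PUMA, had 11.6 and 13.1 CPM with LPS and arctigenin and 12.0 and 9.54 CPM with LPS. These overlapped, and the difference had a 95% interval of −0.15 to 0.54 on the log2 scale (edgeR adjusted p = 0.323).

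The effectors differed from each other in this comparison. Bak1 had 199.8 and 196 CPM with LPS and arctigenin, 143 and 141 CPM with LPS, and 88.8 CPM with vector. The 3 groups formed separate steps. Bak1 rose 1.39-fold relative to LPS (log2 0.48 ± 0.06, edgeR adjusted p = 0.000141), in all 12 alternatives. Bax had 116 and 122 CPM with LPS and arctigenin, 117 and 109.8 CPM with LPS, and 148 CPM with vector. Its arctigenin and LPS libraries overlapped and it was not called (log2 0.07, 95% interval −0.08 to 0.22, edgeR adjusted p = 0.437). The intervals of Bak1, 0.35 to 0.61, and of Bax did not overlap, though the difference between the genes was not itself tested.

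All 3 survival genes fell, each by less than Bid, and their calls were less firm. Bcl2 had 11.3 and 12.0 CPM with LPS and arctigenin, 17.6 and 16.7 CPM with LPS, and 14.1 CPM with vector. It fell 1.47-fold relative to LPS (log2 −0.56 ± 0.13, edgeR adjusted p = 0.00635), and the adjusted p was 0.0641 without LPS replicate 1. Bcl2l1 had 245 and 254 CPM with LPS and arctigenin, 289.9 and 305 CPM with LPS, and 129 CPM with vector. Its arctigenin libraries lay below LPS alone but far above vector. Bcl2l1 fell 1.19-fold relative to LPS (log2 −0.25 ± 0.06, edgeR adjusted p = 0.00672), and the adjusted p was 0.0813 without LPS replicate 2. Mcl1, the most abundant member and a protein of short half-life, had 537 and 616 CPM with LPS and arctigenin, 681 and 707 CPM with LPS, and 943 CPM with vector. The arctigenin replicates of Mcl1 were farther apart than those of LPS but stayed below them. It fell 1.20-fold relative to LPS (log2 −0.27 ± 0.07, edgeR adjusted p = 0.0138). The adjusted p of Mcl1 was 0.0706 without LPS replicate 1, 0.112 without LPS replicate 2 and 0.0506 without LPS with arctigenin replicate 1, where its log2 value was −0.17. With curated transcripts only, the calls of Bcl2, Bcl2l1 and Mcl1 were also lost (edgeR adjusted p = 0.0511, 0.0694 and 0.0722), with log2 values of −0.56, −0.27 and −0.27. In 7 of the 9 genes both libraries of one group lay above both of the other, as did 73.9% of all genes, with Bax and Bbc3 as the exceptions.

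**Figure D2:**
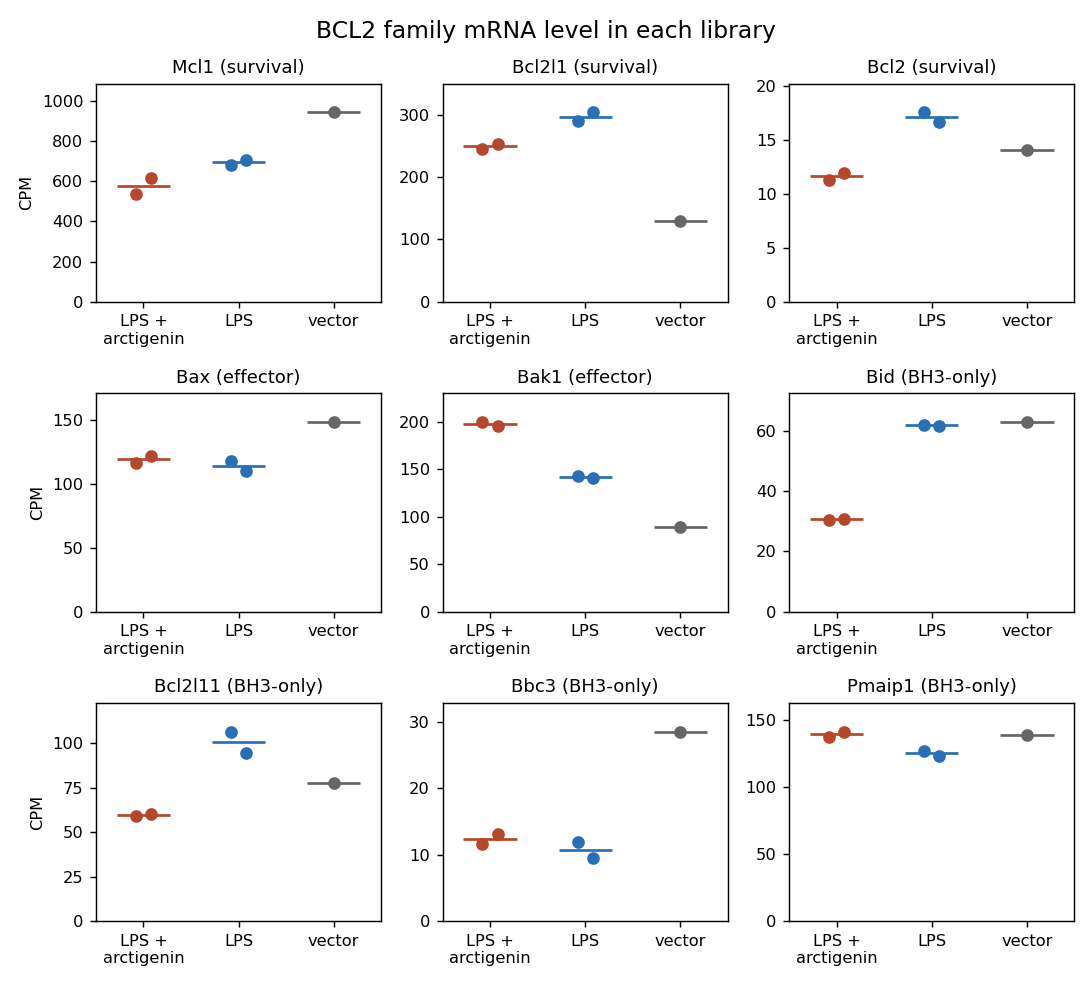
Level of each of the 9 genes in CPM, one point per library, with a bar at the group mean and each vertical axis starting at 0. Bid with LPS and arctigenin sits at 30.4 and 30.7 CPM, below LPS and vector between 61.5 and 62.9 CPM, while Bak1 is at 199.8 and 196 CPM with LPS and arctigenin, 143 and 141 CPM with LPS and 88.8 CPM with vector.

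The comparison of LPS against vector rests on 2 LPS libraries and 1 vector library, and it shares the LPS libraries with the comparison above, so the values are set side by side only. Of the 9 genes, 3 rose, 3 fell and 3 were not called, where 52.0% of all genes were called, 27.1% as higher and 24.9% as lower. The median log2 fold change of the 9 was −0.03, against −0.012 over all genes. The largest rise was in Bcl2l1 and the largest fall in Bbc3.

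The survival genes went apart with LPS. Bcl2l1 rose 2.30-fold relative to vector (log2 1.20 ± 0.08, edgeR adjusted p = 1.11e-06), with both LPS libraries far above vector. Mcl1 instead fell 1.36-fold (log2 −0.44 ± 0.09, edgeR adjusted p = 0.002). Bcl2 was not called (log2 0.28, 95% interval −0.07 to 0.63, edgeR adjusted p = 0.159).

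The effectors went apart as well. Bak1 rose 1.60-fold relative to vector (log2 0.68 ± 0.07, edgeR adjusted p = 3.96e-05) and Bax fell 1.31-fold (log2 −0.39 ± 0.08, edgeR adjusted p = 0.0024). Among the BH3-only genes, Bbc3 had 12.0 and 9.54 CPM with LPS and 28.5 CPM with vector. It fell 2.65-fold (log2 −1.40 ± 0.17, edgeR adjusted p = 7.69e-05). Bcl2l11 rose 1.30-fold (log2 0.37 ± 0.10, edgeR adjusted p = 0.00866). That rise was less firm: its adjusted p was 0.0753 without LPS replicate 1, 0.0902 with curated transcripts only and 0.0755 with the length trend taken out. Bid (log2 −0.03, 95% interval −0.24 to 0.19) and Pmaip1 (log2 −0.15, 95% interval −0.31 to 0.02) were not called.

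LPS with arctigenin against vector closes the set, and shares libraries with both comparisons above. Of the 9 genes 2 rose and 5 fell, where 56.2% of all genes were called, 30.4% as higher and 25.7% as lower. Bak1 rose 2.23-fold relative to vector (log2 1.16 ± 0.08, edgeR adjusted p = 9.75e-07) and Bcl2l1 rose 1.93-fold (log2 0.95 ± 0.08, edgeR adjusted p = 4.36e-06). Bbc3 fell 2.31-fold, Bid 2.06-fold, Mcl1 1.63-fold, Bcl2l11 1.30-fold and Bax 1.25-fold. Each of these 7 calls held in all 10 alternatives of this comparison. Bcl2 and Pmaip1 were not called, with 95% intervals of −0.63 to 0.08 and −0.16 to 0.17 on the log2 scale.

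**Figure D3:**
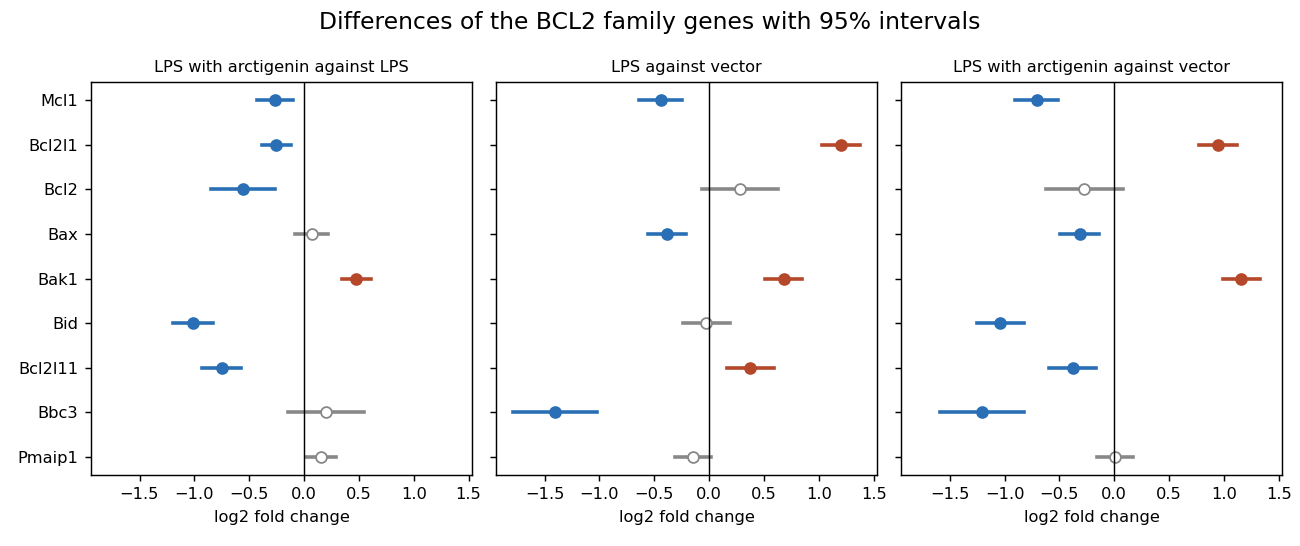
Log2 fold change of each gene with its 95% interval in the 3 comparisons, in red where called higher, in blue where called lower and open where not called. Bid is at −1.01 for LPS with arctigenin against LPS and at −0.03 for LPS against vector, and Bcl2l1 is at −0.25 and 1.20.

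The table lists 39 transcripts of the 9 genes, and 29 passed the count filter. The estimation divided shared reads between transcripts of a gene, so these values are less certain than gene sums. By edgeR with adjustment over 35464 transcripts, 1.19% of transcripts were called for LPS with arctigenin against LPS, 0.587% as lower, and 1 transcript of the 9 genes was among the lower ones. It was the curated Bid transcript, with 19.2 and 19.7 CPM with LPS and arctigenin, 52.5 and 45.6 CPM with LPS, and 51.9 CPM with vector. It fell 2.52-fold relative to LPS (log2 −1.33 ± 0.14, adjusted p = 0.0452). The predicted Bid variant X2 stood at 9.61 and 10.04 CPM with LPS and arctigenin and at 7.76 and 13.6 CPM with LPS, so its groups overlapped. Whether the Bid transcripts differed from each other was not tested.

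Bcl2l11 transcripts also had unlike values, and none of them was called for LPS with arctigenin against LPS. Variant 2 had 10.4 and 17.5 CPM with LPS and arctigenin, 45.4 and 32.5 CPM with LPS, and 41.9 CPM with vector (log2 −1.48 ± 0.33 relative to LPS, edgeR adjusted p = 0.14). Variant 1 had 31.2 and 29.9 CPM with LPS and arctigenin, 51.2 and 50.2 CPM with LPS, and 32.7 CPM with vector (log2 −0.73 ± 0.12, edgeR adjusted p = 0.0772). Both were lower in the arctigenin libraries than in the LPS libraries without overlap. Of all genes, 73.9% were separate in this way in either direction, and the share of all transcripts was not counted. Variant 5 went the other way in level, at 7.56 and 8.11 CPM with LPS and arctigenin and 3.85 and 5.93 CPM with LPS (edgeR adjusted p = 0.532). Of Bcl2l1, the predicted variant X3 and the curated variant 1 held most of the level. Variant X3 had 95.3 and 121 CPM with LPS and arctigenin and 126 and 148 CPM with LPS, and variant 1 had 87.2 and 76.9 CPM against 117 and 98.3 CPM with LPS.

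**Figure D4:**
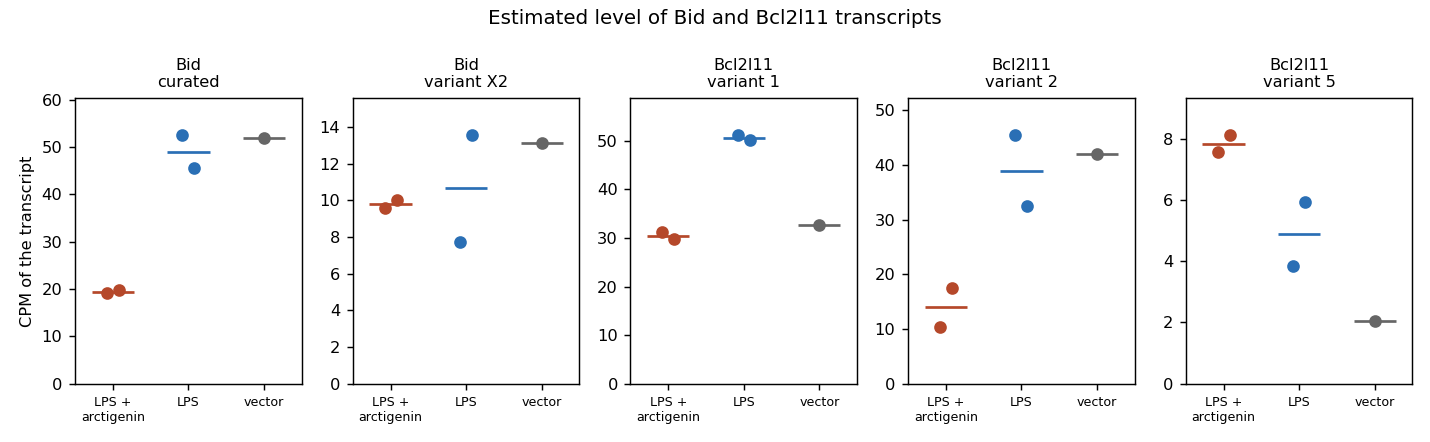
Estimated CPM of 2 Bid and 3 Bcl2l11 transcripts, one point per library, with a bar at the group mean and axes starting at 0. The curated Bid transcript is at 19.2 and 19.7 CPM with LPS and arctigenin and at 52.5 and 45.6 CPM with LPS, while Bid variant X2 overlaps between these groups.

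Further BCL2 family genes were examined as a list. Of its 17 genes, 11 passed the count filter. Bcl2a1c, Bcl2l10 and Bok had 0 counts in every library. A fixed bound of 3 counts, or 0.119 to 0.160 CPM by library, was set for counting error at 0. That bound does not cover how shared reads were divided between genes. Bik, Hrk and Bcl2l14 stayed at or below 0.245 CPM. For LPS with arctigenin against LPS 1 of the 11 rose and 3 fell, with a median log2 fold change of −0.10, where 44.8% of all genes were called. Bnip3, a mitochondrial BH3-like protein that also serves mitophagy, had 158 and 153 CPM with LPS and arctigenin, 80.7 and 82.5 CPM with LPS, and 164 CPM with vector. It rose 1.91-fold relative to LPS (log2 0.93 ± 0.06, edgeR adjusted p = 4.12e-06), and LPS alone was 2.01-fold below vector (log2 −1.01 ± 0.07, edgeR adjusted p = 2.34e-06).

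Bcl2a1a, Bcl2a1b and Bcl2a1d encode near-identical A1 survival proteins, so the division of reads among them is uncertain. Bcl2a1a had 5.32 and 11.2 CPM with LPS and arctigenin and 21.03 and 17.7 CPM with LPS. It fell 2.35-fold (edgeR adjusted p = 0.0138), and its log2 value lay between −1.86 and −0.79 over 12 alternatives, 3 of which lost the call, with adjusted p values up to 0.0778. Bcl2a1b, named after its values were seen, had 118 and 117 CPM with LPS and arctigenin, 155 and 181 CPM with LPS, and 227 CPM with vector. It fell 1.43-fold relative to LPS (edgeR adjusted p = 0.000519) and LPS was 1.35-fold below vector (edgeR adjusted p = 0.00282). Bcl2a1d, also named after its values were seen, had 124 and 111 CPM with LPS and arctigenin, 121 and 130 CPM with LPS, and 158 CPM with vector. Its arctigenin and LPS libraries overlapped, and it was not called between them (log2 −0.09, edgeR adjusted p = 0.345). For Bcl2a1d, LPS was 1.26-fold below vector (edgeR adjusted p = 0.0092). Bmf, a BH3-only gene, was low throughout, at 0.373 and 0.211 CPM with LPS and arctigenin and 1.71 CPM with vector. It fell 5.78-fold relative to vector (edgeR adjusted p = 0.0147), a call lost in DESeq2 and with curated transcripts only, where the adjusted p reached 0.0768.

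The apoptosome and caspases act downstream of the mitochondria. Of 10 of their genes, all of which were tested, 5 rose and 1 fell for LPS against vector, with a median log2 fold change of 0.33, near the 52.0% of all genes called. For LPS with arctigenin against LPS 2 rose and 3 fell, with a median of 0.07, where 44.8% of all genes were called. Casp6, an executioner caspase, had 64.9 and 62.5 CPM with LPS and arctigenin, 44.7 and 45.8 CPM with LPS, and 8.68 CPM with vector. It rose 1.41-fold with arctigenin relative to LPS (edgeR adjusted p = 0.000952) and 5.21-fold with LPS relative to vector (edgeR adjusted p = 2.6e-07). Apaf1, the scaffold of the apoptosome, had 52.7 and 48.8 CPM with LPS and arctigenin, 73.8 and 66.1 CPM with LPS, and 34.02 CPM with vector. It fell 1.38-fold with arctigenin relative to LPS (edgeR adjusted p = 0.00211) and rose 2.06-fold with LPS relative to vector (edgeR adjusted p = 3.89e-05).

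Of 7 inhibitors of caspases, 2 rose and 3 fell for LPS with arctigenin against LPS, and 3 rose and 1 fell for LPS against vector. Of all genes, 44.8% and 52.0% were called in these comparisons. Birc5, survivin, which also serves mitosis, had 48.3 and 39.6 CPM with LPS and arctigenin, 17.0 and 11.3 CPM with LPS, and 39.5 CPM with vector. It rose 3.10-fold relative to LPS (edgeR adjusted p = 0.000267). Cflar, which encodes the caspase-8 inhibitor c-FLIP, had 696 and 795 CPM with LPS and arctigenin, 828 and 867 CPM with LPS, and 324 CPM with vector. It rose 2.62-fold with LPS relative to vector (edgeR adjusted p = 1.89e-06, and 0.0651 with curated transcripts only).

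Of 10 death receptors and adaptors, 1 rose and 2 fell for LPS with arctigenin against LPS, and 4 rose and 2 fell for LPS against vector, beside 44.8% and 52.0% of all genes called. The death receptor gene Fas had 19.5 and 15.8 CPM with LPS and arctigenin, 31.2 and 32.3 CPM with LPS, and 12.4 CPM with vector. It fell 1.80-fold relative to LPS (edgeR adjusted p = 0.000422). Fadd, the adaptor between death receptors and caspase-8, had 4.74 and 4.53 CPM with LPS and arctigenin, 7.50 and 9.54 CPM with LPS, and 14.6 CPM with vector. It fell 1.84-fold relative to LPS (edgeR adjusted p = 0.00456, and 0.0571 at the most over 12 alternatives). Mlkl, the executor of necroptosis, had 73.2 and 77.1 CPM with LPS and arctigenin, 76.8 and 89.1 CPM with LPS, and 25.4 CPM with vector, and rose 3.26-fold with LPS relative to vector (edgeR adjusted p = 1.91e-06).

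Of 18 regulators of the transcription or stability of these genes, 17 passed the count filter. For LPS with arctigenin against LPS 3 rose and 6 fell, and for LPS against vector 8 rose and 4 fell, where 44.8% and 52.0% of all genes were called. Myc, a transcription factor that can sensitise cells to apoptosis, had 42.1 and 53.5 CPM with LPS and arctigenin, 103 and 93.8 CPM with LPS, and 114 CPM with vector. It fell 2.06-fold relative to LPS (edgeR adjusted p = 0.000106). Ddit3, the stress factor CHOP, had 39.7 and 55.6 CPM with LPS and arctigenin, 91.0 and 85.8 CPM with LPS, and 174 CPM with vector, and fell 1.86-fold relative to LPS (edgeR adjusted p = 0.0016). Rel and Stat3, known activators of Bcl2l1 transcription, rose 2.98-fold and 2.64-fold with LPS relative to vector (edgeR adjusted p = 2.19e-07 and 1.67e-06). Stat3 was 1.17-fold lower with LPS and arctigenin than with LPS (edgeR adjusted p = 0.0274, and up to 0.149 over 12 alternatives). Rel was not called for LPS with arctigenin against LPS (log2 −0.16, edgeR adjusted p = 0.0554). Rela and Nfkb1, of the same list, were named after their values were seen. For LPS against vector Rela was called lower (log2 −0.34) and Nfkb1 was not called (log2 0.24). Foxo1, a transcription factor known to activate Bcl2l11 and Bbc3, had 20.9 and 19.0 CPM with LPS and arctigenin, 17.5 and 16.7 CPM with LPS, and 9.36 CPM with vector. It was 2.13-fold higher with LPS and arctigenin than with vector (edgeR adjusted p = 0.000235). With LPS alone it was already 1.82-fold higher (edgeR adjusted p = 0.00122). Foxo1 was not called for LPS with arctigenin against LPS (log2 0.23, edgeR adjusted p = 0.162). Trp53, which encodes the p53 protein known to activate Bbc3, Bax and Pmaip1, was named after its values were seen. It had 73.7 and 72.3 CPM with LPS and arctigenin, 51.8 and 55.7 CPM with LPS, and 106 CPM with vector. Trp53 rose 1.36-fold with arctigenin relative to LPS (edgeR adjusted p = 0.00107) and fell 1.97-fold with LPS relative to vector (edgeR adjusted p = 9.83e-06).

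Bbc3 had the widest range of group means of the 9 genes, and its likeness to other genes was measured as the Euclidean distance of centred log2 CPM over the 5 libraries. Among 9483 genes with a mean log2 CPM of at least 2, Prmt3 was nearest with a distance of 0.129. Nxf7 (0.155), Nat10 (0.182), Fancl (0.186) and Rbm19 (0.197) followed. With 5 libraries in 3 groups, many genes can share such a pattern.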

How the data were processed

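RNA sequencing libraries of RAW264.7 cells were analysed from the table of estimated counts per RefSeq transcript that the authors deposited. Trimmomatic, HISAT2, Cufflinks, HTSeq and DESeq with build mm9 are named in the submitters' processing notes, without a statement of which tool made the non-whole values. Use of the strand is not stated, so reads of overlapping genes cannot be told apart. Counts of 75959 transcripts were added up by gene symbol, then rounded. Genes were tested with edgeR 4.0.16 (TMM, filterByExpr at min.count 10 and min.total.count 15, robust quasi-likelihood fit, group as the only term) in R 4.3.3, with 2 residual degrees of freedom. The filter kept 11575 genes. The SE was derived from each fold change and its F statistic, and intervals are unadjusted. Levels per kilobase used merged exons of GENCODE vM1 on NCBIM37.

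Alternatives were RLE size factors, no count filter, DESeq2 1.42.0, limma-voom (limma 3.58.1), curated transcripts only, each replicate left out, the 4 libraries of the LPS groups alone or with a replicate block, and a length trend taken out, which was added after seeing the data. The script was tested on simulated data. Replicates differed by more than counting noise, the chi-square divided by its degrees of freedom being 8.30 for LPS with arctigenin and 5.13 for LPS.

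The 9 genes, the lists and the tests were chosen with earlier results of these data known. All 9 genes are named. From each other list, called genes with a log2 fold change of at least 1 in size in any comparison are named, or else the 3 called genes with the largest change. For the gene of the 9 with the widest range, the 5 nearest genes are named. Genes named after their values were seen are marked so in the text. Some items that these rules name are not reported here.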

Additional observations from a re-analysis of the deposited data

How the results depend on the processing

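For LPS with arctigenin against LPS, the number of the 9 genes called lower was 5, with 2 from curated transcripts only and 3 to 5 when a replicate was left out, and the number called higher was 1 in every alternative run. All genes called in this comparison numbered 5180, with 2532 from curated transcripts only and 3234 to 5180 when a replicate was left out. From curated transcripts only, 3211 genes were called for LPS against vector (6024 from all transcripts) and 3815 for LPS with arctigenin against vector (6503 from all transcripts). The causes were not tested. Directions reversed only in genes that were not called: Bax for LPS with arctigenin against LPS (−0.063 with the length trend taken out), and Pmaip1 for LPS with arctigenin against vector (−0.011 with RLE size factors and in DESeq2, −0.014 to 0.027 when a replicate was left out). Replicate numbers did not pair the samples, with a correlation of deviations of −0.0084, and the replicate block called 5320 genes and the same 6 of the 9. The single vector library and the estimated, not observed, division of reads between transcripts limit these comparisons.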
